A study of Rattus norvegicus with 20 samples.

Results

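HOX genes are the homeobox genes of the HoxA, HoxB, HoxC and HoxD clusters. They were taken here as every transcript of the array whose single platform gene symbol reads Hoxa, Hoxb, Hoxc or Hoxd followed by a number. The rule found 32 of 18511 transcripts with 1 symbol, each from a different gene: 31 coding genes and the antisense RNA Hoxa11-as. Their signal was compared in isolated renal vessels of male Wistar Kyoto rats, with 1 RaGene2.0_st array per rat and 5 rats in each of 4 groups. The P180 MatSep rats were adults that had been taken from the dam for a part of each day in early postnatal life, and the P180 control rats were adults of non-handled litters, which the labels also call littermates. The P10 MatSep rats were neonates killed while the period of daily separations was still running, and the P10 control rats were non-handled neonates. Vessels of both ages were obtained by grating the kidney on a sieve. A finer mesh was used for the neonates, and age and preparation therefore cannot be told apart. The comparisons ask how these genes differ between adult and neonatal vessels, and whether MatSep changes them at either age.

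HOX proteins are DNA-binding transcription factors that give cells along the head to tail axis their position. Within a cluster the genes lie in the order of their paralogue numbers, and genes with low numbers act anteriorly and genes with high numbers posteriorly, a correspondence called collinearity. In the embryo, retinoic acid and Trithorax proteins favour their expression, Polycomb proteins keep them silent outside their domain, and cofactors of the TALE family (Meis, Pbx, Pknox) bind DNA with them. In the mouse kidney, paralogues of groups 10 and 11 are needed for the metanephric mesenchyme and stroma, and many adult mesenchymal and vascular cells keep a HOX pattern of the place they came from.

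The array measured 31 of the 39 coding HOX genes that RefSeq (GRCr8) lists for the rat: 8 of 11 in HoxA on chromosome 4, 10 of 10 in HoxB on chromosome 10, 7 of 9 in HoxC on chromosome 7 and 6 of 9 in HoxD on chromosome 3. The others were not analysed here. The RefSeq spans of Hoxa4, Hoxa5 and Hoxa6 overlap that of Hoxa3, and the spans of Hoxc4 and Hoxc5 overlap that of Hoxc6, so the signal of these 5 measured genes could be shared with an unmeasured neighbour. There were 6 low-signal genes with a mean log2 intensity under 5 over the 20 arrays, namely Hoxa13, Hoxb13, Hoxc12, Hoxd1, Hoxd12 and Hoxd13. The other 25 coding genes were at or above this limit, and Hoxb1 (5.01), Hoxc13 (5.11) and Hoxd3 (5.24) lay nearest to it. Signals are relative to one probe set's own scale and were not compared between genes.

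The authors deposited normalized intensities on a linear scale, and their log2 was analysed. Array medians lay between 6.00 and 6.18 on the log2 scale, and the lowest correlation between 2 arrays of a group was 0.985. The labelled tissue was checked with markers. For each marker list the intensities were summed on the linear scale and the log2 of the sum was taken, so bright genes weigh most. Over the 20 arrays this value was 12.55 to 13.33 for 5 endothelial genes, among them Cdh5. It was 11.51 to 14.14 for 5 smooth muscle genes, among them Myh11. Tubular RNA was present as well, with 14.32 to 15.20 for 7 proximal tubule genes. Some chosen markers had no transcript with 1 symbol, among them Pecam1, Kdr and Eng of 8 endothelial genes. Each comparison was fitted with limma over all 18511 transcripts, and a gene passed at an adjusted p under 0.05 (Benjamini-Hochberg). Log2 fold changes subtract one group's mean log2 intensity from another's and are given with a standard error (SE).

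In control rats, 13 of the 31 coding HOX genes were lower at P180 than at P10, 1 was higher and 17 did not pass. The background in this comparison was 45.3% of all transcripts called, 20.6% lower and 24.7% higher. The count in both directions together, 14 of 31, was near that background, while its split between lower and higher was not, and the difference of the split was not tested. The median log2 fold change was -0.22 over the 31 genes and 0.05 over all transcripts. None of the 6 low-signal genes passed, and over the 25 others the median was -0.38. The 5 adult and 5 neonatal arrays did not overlap in 9 coding genes, all lower in adults, beside 31.3% of all transcripts (15% lower and 16.3% higher). The antisense RNA Hoxa11-as was also lower, by a log2 fold change of -0.46 (SE 0.10, limma adjusted p = 0.000871).

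The 3 measured paralogues of group 10 all fell with age, beside 20.6% of all transcripts lower. The largest falls of the family were in 2 of them. Hoxa10, a gene of the posterior trunk, hindlimb and uterus, had log2 intensities of 6.37, 6.78, 6.16, 6.28 and 5.83 in P180 controls, against 7.61, 7.69, 7.27, 7.62 and 7.14 in P10 controls. Every adult value lay below every neonatal value. The log2 fold change was -1.18 (SE 0.20, limma adjusted p = 7.72e-05), a signal 2.27-fold lower in adults. Hoxc10, which patterns lumbar levels and marks adipose and limb mesenchyme, had 6.14, 6.40, 6.05, 6.39 and 6.00 in P180 controls, against 7.23, 7.10, 7.07, 7.47 and 7.20 in P10 controls. These groups did not overlap either, and the log2 fold change was -1.02 (SE 0.14, limma adjusted p = 7.5e-06). Hoxd10, which has been tied to quiescence of endothelial cells, had 8.97, 8.90, 8.78, 9.07 and 8.92 in P180 controls, against 9.49, 9.35, 9.41, 9.42 and 9.25 in P10 controls. The change of Hoxd10 was smaller but the arrays were tight, with a log2 fold change of -0.46 (SE 0.07, limma adjusted p = 3.29e-05) and no overlap.

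Group 9, the next group towards the anterior, did not follow. Hoxa9, the neighbour of Hoxa10 and a gene of blood progenitors and endothelium, had 8.43, 8.19, 8.11, 8.30 and 8.06 in P180 controls, against 7.94, 7.74, 8.24, 8.33 and 8.14 in P10 controls. The groups overlapped, with a log2 fold change of 0.14 (95% interval -0.11 to 0.39, limma adjusted p = 0.352). Hoxc9, a determinant of thoracic motor neurons, and Hoxb9 had log2 fold changes of 0.15 (limma adjusted p = 0.24) and 0.06 (limma adjusted p = 0.644). All 3 group 10 genes were thus lower and 0 of 3 group 9 genes, beside 20.6% of all transcripts lower. With 3 genes in each group, the difference between the groups was not tested.

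The start regions of Hoxa10, Hoxd10 and Hoxa9 are shown because they set 2 genes that fell beside the neighbour that did not pass. They are 300-base windows around a RefSeq start (GRCr8), printed 5′ to 3′ on the strand of the gene, and capitals mark the motifs found by a search of both strands. There were 4 motifs in the search, and none contains another. The E-box, a palindrome bound by basic helix-loop-helix factors, was read as CACGTG. The box of the NF-Y factor was read as CCAAT. The core of the promoter element bound by TBP was read as TATAAA. The paired PBX and HOX site was read as TGATNNAT. Each was searched for on the other strand too, and a match there appears in these windows as the reverse complement.
Hoxa10, chr4:82665873-82666172, minus strand: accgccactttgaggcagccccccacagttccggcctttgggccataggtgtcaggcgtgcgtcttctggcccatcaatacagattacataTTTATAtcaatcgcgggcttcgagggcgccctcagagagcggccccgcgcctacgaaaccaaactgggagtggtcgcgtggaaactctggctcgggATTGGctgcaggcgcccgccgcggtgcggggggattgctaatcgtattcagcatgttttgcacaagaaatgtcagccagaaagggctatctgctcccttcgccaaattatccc
Hoxd10, chr3:80001697-80001996, plus strand: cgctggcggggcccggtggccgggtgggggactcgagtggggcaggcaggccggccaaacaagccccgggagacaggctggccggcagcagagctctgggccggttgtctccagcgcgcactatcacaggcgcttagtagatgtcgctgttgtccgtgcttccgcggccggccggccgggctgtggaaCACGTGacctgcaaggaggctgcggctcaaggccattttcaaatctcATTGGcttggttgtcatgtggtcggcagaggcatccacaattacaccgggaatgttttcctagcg
Hoxa9, chr4:82656999-82657298, minus strand: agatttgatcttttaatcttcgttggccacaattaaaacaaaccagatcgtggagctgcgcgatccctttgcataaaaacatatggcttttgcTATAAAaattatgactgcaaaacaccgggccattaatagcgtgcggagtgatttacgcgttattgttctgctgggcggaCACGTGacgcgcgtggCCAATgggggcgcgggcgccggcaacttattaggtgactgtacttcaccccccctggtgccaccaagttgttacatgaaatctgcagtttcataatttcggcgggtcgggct
The Hoxa10 window shown, 1 of 2 for this gene, holds a TBP element and an NF-Y box, both on the other strand. The Hoxa10 window not shown holds a TBP element on the strand of the gene and no NF-Y box. The Hoxd10 window holds an E-box and, on the other strand, an NF-Y box, and that of Hoxa9 holds a TBP element, an E-box and an NF-Y box. RefSeq windows were at hand for 16 members, 17 windows in all because Hoxa10 has 2. The E-box occurred in 6 of these 17 windows (35.3%) and in 6.42% of 33469 windows of 27457 genes. The NF-Y box occurred in 11 of the 17 (64.7%) and in 37.5% of all windows, the TBP element in 4 (23.5%) and in 14.2% of all, and the PBX and HOX site in 3 (17.6%) and in 9.1% of all. HOX windows had a median of 21 CG dinucleotides (6 to 42), against 7 (0 to 66) in all windows. A match is a description of letters and not of a bound site.

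Of the 13 central genes, of paralogue groups 4 to 8, 8 passed as lower and 0 as higher, beside 20.6% lower and 24.7% higher over all transcripts, and their median log2 fold change was -0.49. Differences between central, anterior and posterior genes were not tested. All 3 measured genes of group 5 passed. Hoxb5, which is expressed in angioblasts and gut mesenchyme, had 7.04, 6.76, 7.15, 6.95 and 6.64 in P180 controls, against 7.20, 7.02, 7.88, 8.08 and 8.16 in P10 controls. The neonatal values fell into a low pair and a high trio, and the lowest of them lay within the adult range. The log2 fold change of Hoxb5 was -0.76 (SE 0.20, limma adjusted p = 0.0045). Hoxa5, a gene of lung and vascular differentiation, had 8.83, 8.66, 8.57, 8.13 and 8.18 in P180 controls, against 8.89, 8.80, 9.20, 9.18 and 9.19 in P10 controls. Only the highest adult array reached above the lowest neonatal one, and the log2 fold change was -0.58 (SE 0.13, limma adjusted p = 0.00104). Hoxc5 had 7.21, 6.93, 6.58, 6.71 and 6.76 in P180 controls, against 6.92, 6.79, 7.76, 8.14 and 7.58 in P10 controls. Its log2 fold change of -0.60 (SE 0.23, limma adjusted p = 0.0405) lost its call without any 1 of P180 control replicates 2, 3, 4 and 5 or P10 control replicates 3, 4 and 5, with an adjusted p of 0.0531, 0.0899, 0.076, 0.0715, 0.0979, 0.133 and 0.0793 in that order. It was also lost with the runs of sample numbers as a random block (limma adjusted p = 0.0765), in a fit of the 2 groups alone (limma adjusted p = 0.0564), with all transcripts of the table (limma adjusted p = 0.0541) and without variance moderation (limma adjusted p = 0.0666).

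Both measured genes of group 6, 2 of 4 genes of group 4 and 1 of 2 measured genes of group 8 were lower, beside 20.6% of all transcripts. Hoxa6 had 10.40, 10.13, 10.50, 9.71 and 9.88 in P180 controls, against 10.75, 10.54, 11.15, 11.01 and 10.94 in P10 controls, without overlap (log2 fold change -0.76, SE 0.15, limma adjusted p = 0.000393). Hoxb6, which marks lateral plate mesoderm, had 8.59, 8.59, 8.69, 8.20 and 8.18 in P180 controls, against 8.79, 8.54, 9.01, 9.10 and 9.29 in P10 controls, with overlap (log2 fold change -0.49, SE 0.14, limma adjusted p = 0.00616). Hoxa4 and Hoxd4, genes of the hindbrain and neck, had log2 fold changes of -0.43 (SE 0.10) and -0.74 (SE 0.18) and no overlap between the ages. Hoxb4, a gene of blood stem cells, and Hoxc4 overlapped and did not pass, with log2 fold changes of -0.22 (95% interval -0.52 to 0.09) and -0.34 (95% interval -0.63 to -0.05, limma adjusted p = 0.052).

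Within group 8 the 2 genes differed in what they showed. Hoxc8, which sets thoracic identity of vertebrae and motor neurons, had 8.28, 7.81, 8.11, 7.78 and 7.80 in P180 controls, against 8.71, 8.63, 8.85, 9.18 and 8.66 in P10 controls. The ages did not overlap, and the log2 fold change was -0.85 (SE 0.12, limma adjusted p = 6.46e-06). Hoxb8, a gene of the trunk and of myeloid progenitors, had 8.21, 8.14, 8.26, 7.52 and 7.48 in P180 controls, against 8.12, 7.79, 7.77, 7.96 and 7.91 in P10 controls. The adult arrays lay on both sides of the neonatal ones, and the log2 fold change of 0.01 (95% interval -0.28 to 0.31) was the smallest of the family in controls. Group 7 did not pass in either gene: Hoxb7, which is active in the ureteric bud and collecting duct, had a log2 fold change of -0.07 (95% interval -0.44 to 0.30) and Hoxa7 one of 0.11 (95% interval -0.17 to 0.38).

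**Figure D1:**
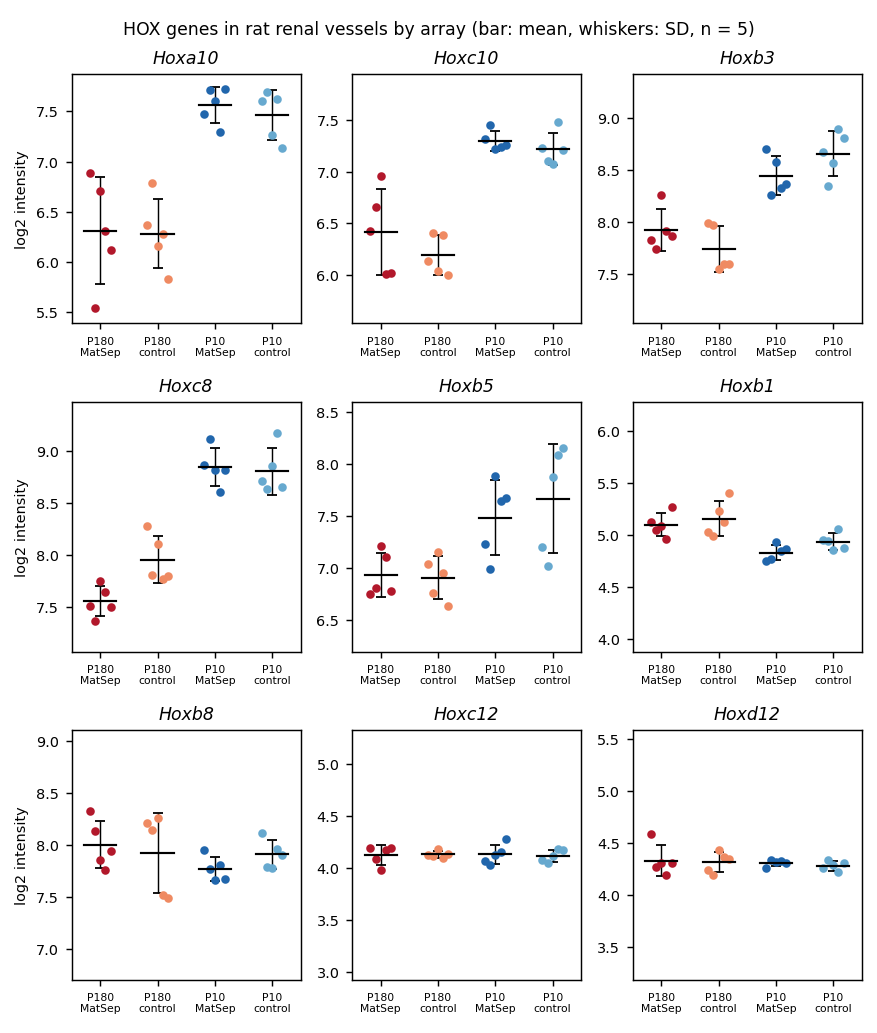
Log2 intensity on each array (points), with the group mean (bar) and SD (whiskers, n = 5 rats), of the 5 HOX genes with the largest falls with age in control rats, the 1 gene that rose and the 3 with the smallest changes. Hoxa10 in P180 controls sits between 5.83 and 6.78, below all P10 controls, which sit between 7.14 and 7.69, while Hoxb8, Hoxc12 and Hoxd12 overlap between the ages.

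Of 6 anterior genes, 2 were lower and 1 was higher, beside 20.6% lower and 24.7% higher over all transcripts. Hoxb3, which patterns the hindbrain and pharyngeal glands, had 7.99, 7.97, 7.55, 7.60 and 7.59 in P180 controls, against 8.67, 8.35, 8.56, 8.90 and 8.80 in P10 controls. The groups stood apart, with a log2 fold change of -0.92 (SE 0.12, limma adjusted p = 3.81e-06), the smallest p of the family in controls. Hoxd3, which has been tied to the angiogenic state of endothelium, had 5.23, 5.13, 4.93, 5.01 and 5.22 in P180 controls, against 5.56, 5.44, 5.49, 5.54 and 5.39 in P10 controls. The values of Hoxd3 did not overlap either (log2 fold change -0.38, SE 0.08, limma adjusted p = 0.000822). Hoxb1, a gene of the fourth hindbrain segment, had 5.03, 5.00, 5.23, 5.13 and 5.41 in P180 controls, against 4.95, 4.94, 4.86, 5.06 and 4.88 in P10 controls, and the ranges overlapped. It was the only HOX gene higher in adults of this arm, with a log2 fold change of 0.22 (SE 0.08, limma adjusted p = 0.0215). The call was lost without P180 control replicate 5 (limma adjusted p = 0.074) or P10 control replicate 3 (limma adjusted p = 0.0534), and after a further quantile normalization (log2 fold change 0.13, limma adjusted p = 0.141). It was also lost in a fit of the 2 groups alone (limma adjusted p = 0.0524) and when runs entered as a random block (limma adjusted p = 0.0542). Hoxa2 and Hoxb2, genes of the branchial arches and hindbrain, did not pass (log2 fold changes -0.33 with limma adjusted p = 0.0868 and -0.19 with limma adjusted p = 0.0813), and neither did Hoxd1.

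Posterior genes, of groups 9 to 13, were lower in 3 of 12, all of them in group 10, with a median of 0.04. Over all transcripts 20.6% were lower and 24.7% higher, and no coding gene of group 11 was measured. Hoxa13, Hoxb13, Hoxc13 and Hoxd13, genes of the distal limb, prostate, hair and genital tubercle, had log2 fold changes of 0.05, -0.09, 0.13 and 0.09, and none passed. Hoxc12 had 4.13, 4.11, 4.18, 4.10 and 4.14 in P180 controls, against 4.08, 4.04, 4.11, 4.18 and 4.17 in P10 controls, and Hoxd12 had 4.25, 4.20, 4.43, 4.37 and 4.34 in P180 controls, against 4.26, 4.34, 4.29, 4.22 and 4.31 in P10 controls. Both genes of group 12 overlapped fully, with log2 fold changes of 0.01 and 0.03, and both are among the low-signal genes. By cluster, 4 of 8 HoxA, 3 of 10 HoxB, 3 of 7 HoxC and 3 of 6 HoxD genes were lower, beside the same 20.6%. The medians were -0.38, -0.14, -0.34 and -0.17 in that order, and differences between clusters were not tested. Over the 31 genes the age change had a Spearman correlation of 0.18 with the paralogue number, and -0.00 over the 25 genes of higher signal. These points share the arrays and the clusters, and no p is given.

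**Figure D2:**
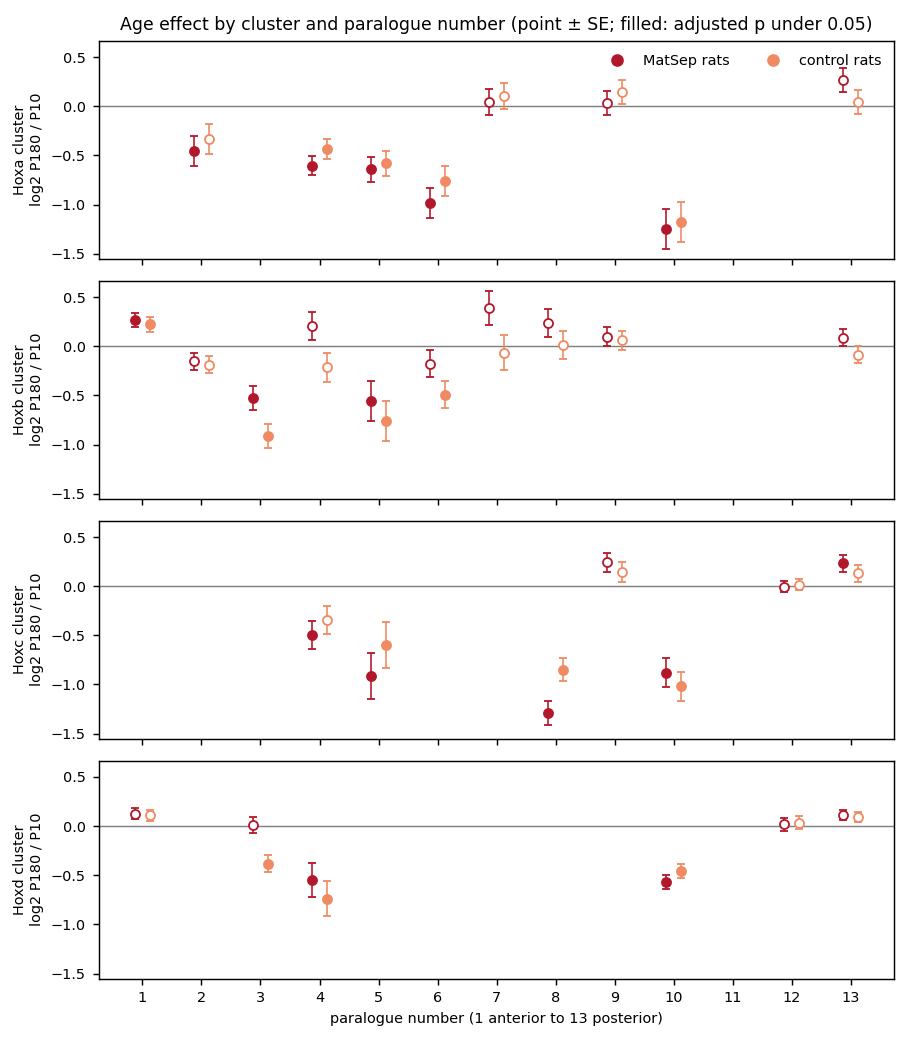
Log2 fold change with age (P180 over P10, vertical axis) of each coding HOX gene by paralogue number (horizontal axis), 1 panel per cluster, in MatSep rats (dark red) and control rats (orange), with SE whiskers and filled points where the adjusted p was under 0.05. The falls lie at paralogue numbers 3 to 6, 8 and 10 in both arms and also at Hoxa2 in MatSep rats, and no gene of group 9 passed.

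In MatSep rats, 13 coding HOX genes were lower at P180 than at P10, 2 were higher and 16 did not pass, on a background of 49.6% of transcripts called (22.2% lower and 27.4% higher). The ages did not overlap in 9 genes that were lower and 2 with a higher mean, beside 33.9% of all transcripts (16.8% lower and 17.1% higher). The arms share no array, and 11 genes were lower in both and 1, Hoxb1, was higher in both. After a further quantile normalization Hoxb1 passed in neither arm (log2 fold change 0.14 and limma adjusted p = 0.112 in MatSep rats), and the 2 genes higher in MatSep rats were then Hoxb7 and Hoxc9 in place of Hoxb1 and Hoxc13. Over the 31 genes the changes of the arms had a Pearson correlation of 0.89 and a Spearman correlation of 0.85, beside a Pearson correlation of 0.93 over all transcripts, with the same sign in 26. These genes share the ages and the sieves of both arms, and the correlation is a description. The median over the 31 genes was -0.01 in MatSep rats and 0.07 over all transcripts, and it was -0.46 over the 25 genes of higher signal.

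Hoxc8 had the largest fall in this arm. It had 7.52, 7.37, 7.75, 7.65 and 7.51 in P180 MatSep rats, against 8.87, 9.11, 8.82, 8.61 and 8.82 in P10 MatSep rats, with no overlap (log2 fold change -1.29, SE 0.12, limma adjusted p = 1.94e-08). Hoxa10 had 6.89, 5.54, 6.71, 6.31 and 6.12 in P180 MatSep rats, against 7.47, 7.71, 7.60, 7.29 and 7.72 in P10 MatSep rats. The adult values spread over more than 1 log2 unit and still stayed under all neonatal values (log2 fold change -1.25, SE 0.20, limma adjusted p = 3.93e-05). Hoxc10 and Hoxd10 again fell without overlap, by 0.88 (SE 0.14) and 0.57 (SE 0.07) on the log2 scale. Group 10 was lower in 3 of 3 genes in both arms, beside 20.6% of all transcripts lower in controls and 22.2% in MatSep rats. Hoxa6 fell by 0.99 (SE 0.15), Hoxc5 by 0.91 (SE 0.23), Hoxa5 by 0.64 (SE 0.13) and Hoxa4 by 0.60 (SE 0.10), each without overlap between the ages. Hoxb3 had 7.82, 7.74, 8.26, 7.92 and 7.86 in P180 MatSep rats, against 8.70, 8.26, 8.58, 8.33 and 8.36 in P10 MatSep rats, so that the highest adult array reached the lowest neonatal one (log2 fold change -0.52, SE 0.12, limma adjusted p = 0.00147).

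A few genes passed in 1 arm alone. Hoxd3 and Hoxb6 passed in controls and had log2 fold changes of 0.01 and -0.18 in MatSep rats, while Hoxa2 (-0.46), Hoxc4 (-0.50) and Hoxc13 (0.23) passed in MatSep rats. No difference between the arms passed, so an effect particular to 1 arm was not shown. Hoxc13, a hair and nail gene, had 5.25, 5.30, 5.51, 5.15 and 5.05 in P180 MatSep rats, against 4.96, 5.00, 5.03, 5.05 and 5.06 in P10 MatSep rats, with overlap at the low end (limma adjusted p = 0.0322). Its call was lost without P180 MatSep replicate 1, 2 or 3 (limma adjusted p = 0.0509, limma adjusted p = 0.0626 and limma adjusted p = 0.102) and without P10 MatSep replicate 1 or 2 (limma adjusted p = 0.0655 and limma adjusted p = 0.0558). It was also lost after a further quantile normalization (log2 fold change 0.0990, limma adjusted p = 0.34) and with the runs of sample numbers as a random block (limma adjusted p = 0.0886). The call of Hoxa2 was lost without P180 MatSep replicate 2 or P10 MatSep replicate 3 or 5 (limma adjusted p = 0.0644, limma adjusted p = 0.0638 and limma adjusted p = 0.0584), and when runs entered as a random block (limma adjusted p = 0.0606). That of Hoxb5, which fell by 0.55, was lost without P180 MatSep replicate 1, 2 or 5 or P10 MatSep replicate 3, 4 or 5 (limma adjusted p = 0.0638, limma adjusted p = 0.0586, limma adjusted p = 0.0624, limma adjusted p = 0.0832, limma adjusted p = 0.0615 and limma adjusted p = 0.0634). After median centring of the arrays 6 genes were higher with age in MatSep rats instead of 2, and 13 were lower as before. Over all transcripts 9612 of 18511 were then called in either direction. Hoxa11-as had a log2 fold change of -0.20 in MatSep rats and did not pass (limma adjusted p = 0.111).

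Other cells moved with age beside the HOX genes, and their part in the HOX changes was not tested. Marker counts stand beside 20.6% of all transcripts lower and 24.7% higher in controls, and 22.2% and 27.4% in MatSep rats. Sums below are again the log2 of summed linear intensities. In controls all 8 fibroblast markers were lower at P180, with sums of 12.77 to 13.32 in P180 controls and 14.36 to 15.07 in P10 controls. All 6 markers of dividing cells were lower, with sums of 8.69 to 8.89 in P180 controls and 12.13 to 12.45 in P10 controls. Of 6 ureteric markers 4 were lower, and of 9 collecting duct markers 5 were lower and 1 was higher. Smooth muscle markers were higher in 4 of 5, with sums of 13.36 to 13.80 in P180 controls and 11.51 to 13.19 in P10 controls, and macrophage markers in 5 of 6. Endothelial markers were mixed, 1 higher and 2 lower of 5, with sums of 12.55 to 13.09 in P180 controls and 12.75 to 13.22 in P10 controls. In MatSep rats all 8 fibroblast markers were lower as well, with sums of 12.58 to 13.33 in P180 MatSep rats and 14.98 to 15.45 in P10 MatSep rats, and so were all 6 markers of dividing cells and 4 of 5 adipocyte markers. In whole vessel RNA, fewer cells of a type and less RNA of a gene per cell cannot be told apart.

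At P10, no HOX gene differed between MatSep and control rats at an adjusted p under 0.05, and 3 of all 18511 transcripts (0.0162%) did. At an unadjusted p under 0.05 there were 2 of 31 HOX genes, against 9.67% of all transcripts. The 95% intervals of the genes bound what could have gone unseen. On simulated data with 100 transcripts changed by 0.5 on the log2 scale and 100 changed by 1, limma called 71% and 95% of them. Those data held no runs of sample numbers and many more changed transcripts than the 3 that passed here. The adjusted threshold was therefore more lenient there, and these shares can overstate what could be detected at P10. The median log2 fold change over the 31 genes was -0.02.

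Hoxd3 was the 1 HOX gene whose P10 groups did not overlap, on a background of 1.67% of transcripts (0.945% lower and 0.724% higher). It had 5.02, 5.23, 5.35, 5.20 and 5.08 in P10 MatSep rats, against 5.56, 5.44, 5.49, 5.54 and 5.39 in P10 controls, and every MatSep value lay below every control value. The log2 fold change was -0.31 (SE 0.08, 95% interval -0.48 to -0.13, limma adjusted p = 0.22). The exact permutation test gave p = 0.00794, the smallest that 252 arrangements of 5 against 5 allow. Groups that do not overlap always give this value, so it adds nothing to the lack of overlap. The change was -0.26 within samples 19 to 24 and -0.37 within samples 14 to 17, the 2 runs of sample numbers at this age. Mean signals of Hoxd3 were 5.19 ± 0.17 in P180 MatSep rats, 5.10 ± 0.13 in P180 controls, 5.18 ± 0.13 in P10 MatSep rats and 5.48 ± 0.07 in P10 controls (SD, n = 5 each), so the P10 controls had the highest mean of the 4 groups.

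Hoxb4 had 7.06, 6.85, 7.26, 7.08 and 7.31 in P10 MatSep rats, against 7.41, 7.01, 7.61, 7.66 and 7.80 in P10 controls. Of the 5 controls, 4 lay above all MatSep rats, and the log2 fold change was -0.39 (SE 0.14, limma adjusted p = 0.373). Hoxb13, a prostate and tail gene of low signal, had 4.73, 4.78, 4.82, 4.88 and 4.80 in P10 MatSep rats, against 5.05, 4.80, 4.85, 5.08 and 5.13 in P10 controls, with a log2 fold change of -0.18 (limma adjusted p = 0.519). Hoxb7 had 7.52, 7.37, 6.67, 7.14 and 6.55 in P10 MatSep rats, against 7.79, 7.44, 7.06, 7.39 and 7.33 in P10 controls, with wide overlap and a log2 fold change of -0.35 (SE 0.18, limma adjusted p = 0.534). Hoxd3, Hoxb4, Hoxb13 and Hoxb7 were each lower in the MatSep rat of all 5 same-numbered pairs at P10, and with the replicate number as a block within each age none passed (limma adjusted p = 0.119, limma adjusted p = 0.226, limma adjusted p = 0.342 and limma adjusted p = 0.242 in that order). These 4 genes were picked for their small p on the same arrays, so the pairs add no separate evidence. For Hoxd3 the lack of overlap fixes that outcome. The labels do not say that same numbers are pairs, and the share over all transcripts was not counted. With array weights, which count deviating arrays less, Hoxd3 and Hoxb4 passed (limma adjusted p = 0.0368 and limma adjusted p = 0.0455), and so did 485 of all transcripts.

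The HoxB genes leaned one way at P10. The mean was lower in P10 MatSep rats than in P10 controls for 9 of 10 HoxB genes, with a median log2 fold change of -0.18, beside 3 of 8 HoxA, 2 of 7 HoxC and 3 of 6 HoxD genes. It was lower for 10 of 10 within samples 19 to 24 and for 8 of 10 within samples 14 to 17. None of the HoxB genes passed, the genes share the same rats, and over all transcripts 9620 of 18511 means were lower. Beside this, the P10 MatSep rats had higher means of all 8 fibroblast, all 6 pericyte, all 5 smooth muscle, all 6 macrophage, all 3 podocyte and all 5 adipocyte markers and lower means of all 9 collecting duct markers, of which none passed. All 5 markers of cortical stromal progenitors, 4 of them with a higher mean, had an unadjusted p under 0.05, beside 9.67% of all transcripts. The same held for all 5 adipocyte, 6 of 8 fibroblast, 3 of 6 macrophage, 2 of 6 pericyte and 2 of 9 collecting duct markers. It held for 0 of 5 smooth muscle and 0 of 3 podocyte markers. The log2 of the summed adipocyte signal was 10.64 to 12.33 in P10 MatSep rats and 8.10 to 12.05 in P10 controls. The part of these cells in the HoxB values was not tested.

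**Figure D3:**
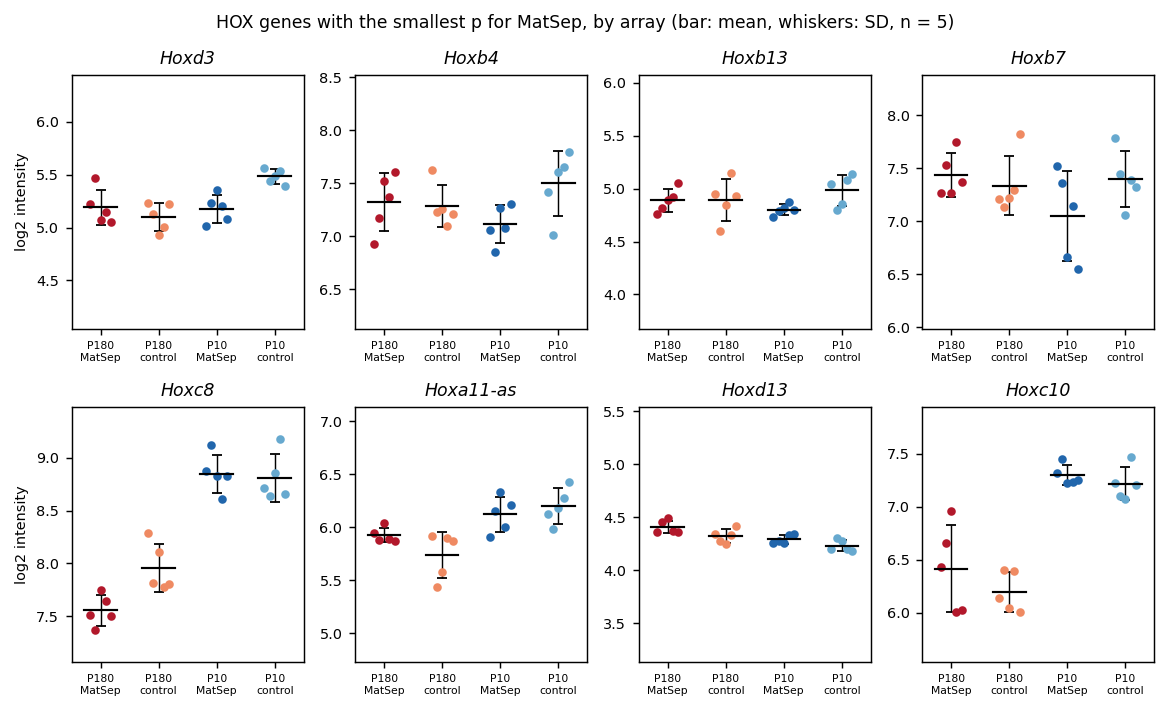
Log2 intensity on each array (points), with the group mean (bar) and SD (whiskers, n = 5 rats), of the 4 HOX genes with the smallest p for MatSep at P10 (upper row) and at P180 (lower row). Hoxd3 in P10 MatSep rats sits between 5.02 and 5.35, below the P10 controls at 5.39 to 5.56, and Hoxc8 in P180 MatSep rats sits between 7.37 and 7.75, below the P180 controls at 7.78 to 8.28.

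At P180, again no HOX gene passed, beside 6 of all transcripts (0.0324%), and 1 of 31 HOX genes had an unadjusted p under 0.05, against 5.76% of all transcripts. That gene was Hoxc8, which had 7.52, 7.37, 7.75, 7.65 and 7.51 in P180 MatSep rats, against 8.28, 7.81, 8.11, 7.78 and 7.80 in P180 controls. The groups did not overlap, which held for 0.81% of all transcripts (0.47% lower and 0.34% higher), but the highest MatSep rat and the lowest control were close. The log2 fold change was -0.40 (SE 0.12, 95% interval -0.65 to -0.15, limma adjusted p = 0.414, exact permutation p = 0.00794). The permutation value is again fixed by the lack of overlap. The Hoxc8 change did not have the same size in both runs. This change was -0.21 within samples 8 to 11 and -0.52 within samples 1 to 6. At P10 the difference in Hoxc8 was 0.04 (95% interval -0.21 to 0.29), and the difference between the ages, -0.44 (SE 0.17), did not pass (limma adjusted p = 0.413).

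The next genes at P180 were less even. Hoxa11-as had 5.94, 5.88, 6.04, 5.89 and 5.87 in P180 MatSep rats, against 5.92, 5.43, 5.57, 5.90 and 5.87 in P180 controls, with a pair of controls below all other arrays of this age and a log2 fold change of 0.19 (limma adjusted p = 0.941). Hoxd13 had 4.36, 4.46, 4.49, 4.37 and 4.36 in P180 MatSep rats, against 4.34, 4.28, 4.25, 4.33 and 4.42 in P180 controls (log2 fold change 0.08, limma adjusted p = 0.985). Hoxc10 had 6.43, 6.66, 6.96, 6.01 and 6.02 in P180 MatSep rats, against 6.14, 6.40, 6.05, 6.39 and 6.00 in P180 controls (log2 fold change 0.22, SE 0.14, limma adjusted p = 1). The 3 highest Hoxc10 values were those of the MatSep rats of samples 1 to 6, and the difference was 0.49 in that run and -0.18 in the other. HoxA means were lower in P180 MatSep rats for 6 of 8 genes, for 1 of 8 within samples 8 to 11 and for 7 of 8 within samples 1 to 6, so the lean of this cluster did not hold in both runs. The P180 MatSep rats had lower means of all 8 fibroblast, all 5 smooth muscle, all 5 cortical stromal progenitor and all 6 dividing cell markers. They had higher means of all 5 measured endothelial and all 9 collecting duct markers. None of these markers passed, and their part was not tested. Pecam1 was not among the measured markers, and the authors reported it as reduced by quantitative PCR in MatSep vessels of both ages.

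**Figure D4:**
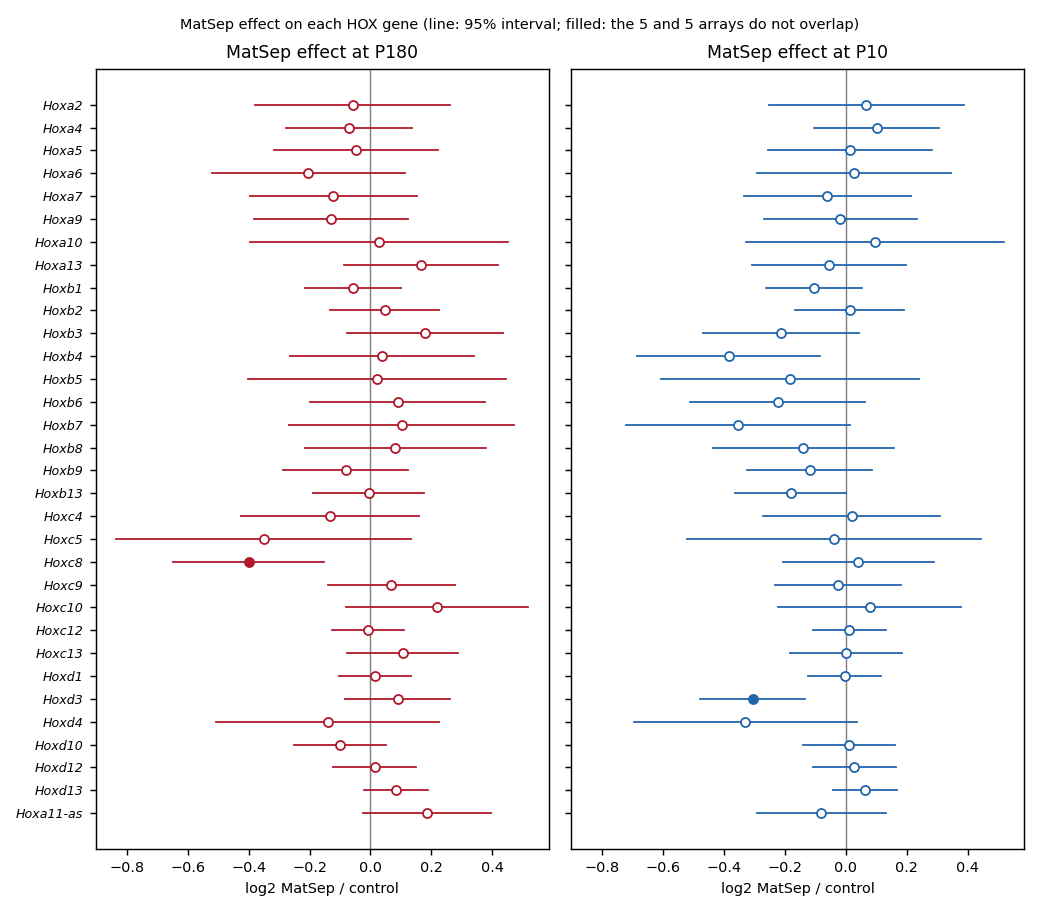
Log2 fold change of MatSep over control (horizontal axis) with its 95% interval for each HOX gene, at P180 (left) and at P10 (right). Points are filled where the 5 and 5 arrays did not overlap, which was the case for Hoxc8 at P180 and Hoxd3 at P10, and most intervals span 0.

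The MatSep effect itself was compared between the ages, and no HOX gene passed, and no transcript of the array did (0%), with 3 of 31 HOX genes at an unadjusted p under 0.05 against 9.04% of all transcripts. The 3 were Hoxd3 (difference 0.40, SE 0.12, limma adjusted p = 0.271), Hoxc8 (-0.44, limma adjusted p = 0.413) and Hoxb3 (0.39, SE 0.17, limma adjusted p = 0.498). For Hoxb3 the MatSep effect was 0.18 at P180 (95% interval -0.08 to 0.44) and -0.21 at P10 (95% interval -0.47 to 0.04).

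Several HOX genes differed between the runs of sample numbers, which the labels do not explain and which each hold as many MatSep as control rats. With treatment in the fit, samples 19 to 24 differed from samples 14 to 17 at P10 in 8 of 31 genes, on a background of 15.5% of transcripts (6.91% higher and 8.55% lower). Hoxb5 (0.78, limma adjusted p = 0.000972), Hoxc5 (0.76), Hoxd4 (0.56), Hoxa9 (0.39), Hoxb4 (0.37), Hoxb6 (0.35) and Hoxa5 (0.28) were higher in samples 19 to 24 and Hoxb7 (-0.51) was lower. These are the low pair and high trio seen in Hoxb5 of P10 controls, and the P10 MatSep rats showed the same, with 7.88, 7.64 and 7.67 in samples 19 to 24 and 7.23 and 6.99 in samples 14 to 17. In the same comparison 4 of 6 pericyte, 2 of 5 smooth muscle and 2 of 5 endothelial markers were higher and 3 of 6 ureteric markers were lower in samples 19 to 24. At P180, Hoxb8 (-0.48, limma adjusted p = 0.00776) and Hoxa5 (-0.33, limma adjusted p = 0.0383) were lower in samples 8 to 11 than in samples 1 to 6, on a background of 2.59% (2.21% lower and 0.378% higher). With the runs as a random block 12 HOX genes were lower and 0 higher with age in controls, beside 6899 of 18511 transcripts called.

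Across the 20 arrays the deviations of the 25 genes of higher signal from their group means went together most in HoxA and HoxC. The median correlation was 0.39 over 21 pairs within HoxA and 0.33 over 15 pairs within HoxC, against -0.05 over 36 pairs within HoxB and -0.06 over 3 pairs within HoxD. It was 0.33 over 20 pairs of the same paralogue number, 0.21 over 75 pairs of the same cluster and 0.14 over 225 pairs of different clusters. The highest single values were those of Hoxb5 with Hoxd4 (0.85), Hoxb4 with Hoxd4 (0.82) and Hoxa5 with Hoxb6 (0.81), pairs from different clusters. The pairs share the arrays and the runs, and Hoxb5, Hoxd4, Hoxb4, Hoxa5 and Hoxb6 are among the genes that differed between runs at P10.

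The clusters also hold microRNA genes, which repress many mRNAs, HOX mRNAs among them. Their mature sequences from RefSeq (GRCr8) are given because 4 of the 6 measured genes fell with age in controls, beside 20.6% of all transcripts lower. Capitals mark the seed, bases 2 to 8.
rno-miR-10a-5p, chr10:81779730-81779752, plus strand: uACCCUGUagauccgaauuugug
rno-miR-10b-5p, chr3:80035886-80035907, plus strand: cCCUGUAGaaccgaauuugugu
rno-miR-196a-5p, chr7:135988900-135988921, plus strand: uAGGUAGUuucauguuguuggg
rno-miR-196b-5p, chr4:82661149-82661170, minus strand: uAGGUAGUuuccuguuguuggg
rno-miR-196c-5p, chr10:81727561-81727582, plus strand: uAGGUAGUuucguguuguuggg
rno-miR-615, chr7:136030369-136030390, plus strand: gGGGGUCCccggugcucggauc
The 3 miR-196 sequences share the seed AGGUAGU, and the miR-10a and miR-10b entries are cut at different first bases, so their seeds are offset. By position, Mir10a lies between Hoxb4 and Hoxb5, Mir10b in the span of Hoxd4, Mir196a between Hoxc9 and Hoxc10, Mir196b between Hoxa9 and Hoxa10, Mir196c between Hoxb9 and Hoxb13, and Mir615 in the spans of Hoxc5 and Hoxc6. The array reads the precursor loci and not the mature RNA. The signal of Mir10b could be shared with Hoxd4, and that of Mir615 with Hoxc5 or Hoxc6, which was not tested. Mir10a averaged 6.53 ± 0.46 in P180 controls and 7.46 ± 0.44 in P10 controls (SD, n = 5 each), a fall by 0.94 on the log2 scale (SE 0.25, limma adjusted p = 0.00409). Mir615 fell by 0.89 (SE 0.20, limma adjusted p = 0.000978), Mir10b by 0.45 (SE 0.14) and Mir196c by 0.42 (SE 0.12). Mir196b, between a gene that fell and one that did not pass, had a log2 fold change of -0.15 (limma adjusted p = 0.329), and Mir196a one of -0.05. In MatSep rats 6 of 6 were lower at P180 than at P10, beside 22.2% of all transcripts lower, and the weakest of the 6 calls was marginal (limma adjusted p = 0.0487). No microRNA gene passed with MatSep at either age.

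Genes that act with or upon the HOX clusters were read from lists chosen with earlier results of these data known. Their counts stand beside 20.6% of all transcripts lower and 24.7% higher with age in controls (45.3% called) and 22.2% lower and 27.4% higher in MatSep rats (49.6% called), and no difference from that background was tested. Of 10 TALE cofactors, 6 were lower and 1 was higher at P180 than at P10 in controls. Meis1, a main DNA-binding partner of HOX proteins, fell by 0.84 (SE 0.13, limma adjusted p = 2.63e-05), Pknox2 by 0.59 (SE 0.10) and Tgif2 by 0.57 (SE 0.09), while Meis3 was higher by 0.40 (SE 0.13). In MatSep rats 6 were lower and 1 was higher. No member of 7 Cdx, Evx and ParaHox genes, the relatives of the HOX genes, passed in controls, and 2 were higher in MatSep rats.

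Polycomb genes went both ways. In controls 10 of 23 were lower and 5 higher at P180, 15 of 23 in all beside 45.3% of all transcripts. Ezh2, the enzyme that methylates histone H3 to silence HOX genes and that is abundant in dividing cells, fell by 1.76 (SE 0.08) and Mtf2, its recruiter, by 0.94 (SE 0.07), while Cbx7, a reader of that mark, rose by 1.58 (SE 0.13) and Pcgf5 by 0.73 (SE 0.09). Of 8 Trithorax genes and H3K27 demethylases 4 were lower and none was higher, among them Wdr5 (-0.50, SE 0.06), Psip1 (-0.69), Dot1l (-0.76) and Ash2l (-0.20). Of 13 retinoic acid genes 5 were lower and 4 higher. Aldh1a2, the main retinoic acid synthesizing enzyme of embryonic mesoderm, had the largest change of these lists, averaging 6.77 ± 0.20 in P180 controls and 10.38 ± 0.23 in P10 controls (SD, n = 5 each), and Aldh1a1 fell by 1.33, the receptor gene Rarb by 0.52, while Rxrb rose by 0.33.

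In the metanephric kidney HOX proteins act with Eya1 and Pax2 upstream of the Gdnf pathway. Of 15 such partners 6 were lower and 3 higher at P180 in controls, beside 20.6% lower and 24.7% higher over all transcripts. The stromal and podocyte factor Tcf21 fell by 1.37 (SE 0.18), Eya1 by 0.75 (SE 0.14) and the progenitor gene Cited1 by 0.67 (SE 0.12), and Gfra1, the co-receptor of Gdnf, rose by 0.92 (SE 0.10). Of 13 genes that flank the clusters and are not HOX genes, 5 were lower and 4 higher. Skap2, beside HoxA, rose by 0.42 (SE 0.06), Lnpk, beside HoxD, fell by 0.58 (SE 0.09), and Hnrnpa1 and Cbx5, beside HoxC, fell by 0.45 (SE 0.09) and 0.27 (SE 0.05). None of the genes on these lists passed with MatSep at P10 or at P180.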

How the data were processed

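The authors deposited RaGene2.0_st intensities on a linear scale, summarised by RMA with quantile normalization (RMA and Partek stand in the submitters' processing notes; versions are not given in the sources used here). Here log2 of these values was taken. Of 36685 transcripts, 18511 carry 1 gene symbol in the platform annotation, 575 several and 17599 none, and of several transcripts of a gene the one with the highest mean was used. One mean per group was fitted over the 20 arrays (16 residual degrees of freedom) with limma 3.58.1 in R 4.3.3, with Benjamini-Hochberg adjustment over the 18511 transcripts and a threshold of 0.05; no filter on low signal was set. Single values were also compared by two-sided exact permutation tests. The fit was tested on simulated data. Genes described singly were the 4 smallest p per MatSep contrast, the 5 largest falls, the largest rises that passed and the 3 smallest changes with age, and up to 4 members per list. Members of each paralogue group were described beside them. The HOX genes and all lists were chosen with earlier results of these data known. The labels name no litter, so p-values measure the spread between these samples. At P10 the deviations of same-numbered MatSep and control arrays had correlations of 0.64, 0.51, 0.64, 0.10 and 0.24, in the order of the replicates. Replicates 1, 2, 3 and 4 matched their own number best, and replicate 5 matched replicate 4 best. Same-numbered arrays also lie in the same run of sample numbers, and a pairing of single rats apart from the runs was not tested. The labels do not explain the replicate numbers. With the replicate number as a block no MatSep call of a HOX gene changed. Arrays give no counting depth, and their number limits the precision. The alternatives were other filters, normalizations, variance models, arrays left out and runs.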

Additional observations from a re-analysis of the deposited data

Results flagged for a closer look

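Of 128 groups of 5 arrays examined (32 transcripts in 4 groups), 8 had a single array that stood apart by Dixon's ratio. Chance flags about 1 in 20 groups. In P180 MatSep rats these were Hoxa2 in replicate 2 (6.55, others 6.99 to 7.13), Hoxa6 in replicate 3 (10.37, others 9.75 to 9.87), Hoxa13 in replicate 5 (5.09, others 4.48 to 4.60) and Hoxb6 in replicate 1 (8.35, others 8.55 to 8.62), all as log2 intensities. In P180 controls Hoxb7 stood apart in replicate 5 (7.82, others 7.13 to 7.29). In P10 MatSep rats replicate 3 was high in both Hoxa5 (9.44, others 8.90 to 9.03) and Hoxa6 (11.25, others 10.79 to 10.88), neighbours in HoxA, and replicate 2 was high in Hoxa13 (4.69, others 4.25 to 4.30). Replicate 2 of the P10 controls also had the highest Hoxa13 value of its group, 4.81. No cause was tested.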

How the results depend on the processing

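The falls with age were steady: over all alternatives 12 to 15 coding HOX genes were lower in controls and 11 to 14 in MatSep rats. Calls in either direction over all 18511 transcripts moved too. In controls they were 8392, but 6899 with the runs as a random block and 9118 with the runs as a block within age. In MatSep rats they were 9187, and 7609 and 10084 with those settings, 9612 after median centring and 9940 with array weights. In each arm 15 HOX transcripts passed, not all the same ones, and none of them changed direction in its arm. Rises were few and moved. In controls 1 gene was higher, but 0 in a fit of the 2 groups alone, after a further quantile normalization and with the runs as a random block, and 2 without variance moderation (0 to 1 when single arrays were left out). In MatSep rats 2 were higher, but 6 after median centring, 5 with array weights, 4 with a trended robust variance, 4 without moderation and 1 with the random block (1 to 3 when single arrays were left out). The median age change was -0.22 in controls and -0.38 without genes of low signal (-0.34 to -0.17 when single arrays were left out). In MatSep rats it was -0.01, and -0.46 without genes of low signal and -0.13 after further quantile normalization (-0.0542 to 0.0261 when single arrays were left out). At P10, 2 genes passed with MatSep under array weights, and the median of -0.02 became -0.0627 (-0.0587 to 0.0129 when single arrays were left out). At P180 the median of 0.01 became -0.0475 without genes of low signal, -0.0618 within samples 1 to 6 and 0.0689 within samples 8 to 11 (-0.03 to 0.04 when single arrays were left out). Within samples 8 to 11 the sign turned for Hoxc10 (-0.18), Hoxd13 (-0.00888) and Hoxa11-as (-0.00227). With the replicate block 13 genes were lower and 1 higher in controls, 13 lower and 2 higher in MatSep rats and 0 passed with MatSep; it changed no other call. The cause of these shifts was not tested. A fit of 2 groups alone has no value for the difference between ages. Low signal limits what could be seen in the 6 dimmest genes.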
